A study of Mus musculus with 4 samples.

Results

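Tmem254, Srp54 and Entpd4 are mouse gene families that each hold near-identical copies close together on a chromosome. The 8 rows of the deposited table named Tmem254a, Tmem254b, Tmem254c, Srp54a, Srp54b, Srp54c, Entpd4 and Entpd4b were taken, out of 54532 genes in all. They were chosen by their counts, since counts of single copies differ between libraries, so the single-copy counts and shares are given as a description and each copy is set against the sum over its family. RNA of mouse cells labelled astrocyte was sequenced after NC siRNA (2 control libraries) or Ptbp1 siRNA (2 knockdown libraries), the latter directed at the RNA-binding protein gene Ptbp1. The labels name no strain, age, source of the cells or time after siRNA, and do not say that replicates are separate cultures, so p-values measure only how these libraries vary, and that variation may be technical.

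Srp54 encodes the GTPase subunit of the signal recognition particle, the RNA-protein complex that binds the signal sequence of a secretory protein as it leaves the ribosome and brings the ribosome to its receptor on the endoplasmic reticulum. Entpd4 encodes a nucleoside diphosphatase of the Golgi and related vesicles, which hydrolyses the UDP left over when sugars are transferred to proteins. Tmem254 encodes a small transmembrane protein for which no role is given here. A short read from a stretch that copies share cannot be assigned to a copy from its letters alone, and a counting rule can drop such reads, split them or give them to a single place. The labels do not say which rule was used here.

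The Tmem254 copies lie on GRCm38 chromosome 14, minus strand, at 25923300 to 25927672 (Tmem254a, ENSMUSG00000072676), 26063919 to 26067355 (Tmem254c, ENSMUSG00000072680) and 26203369 to 26207041 (Tmem254b, ENSMUSG00000021867), with gaps of 136.2 and 136.0 kb. Srp54a (ENSMUSG00000073079, 55080262 to 55115367), Srp54b (ENSMUSG00000112449, 55155104 to 55189573) and Srp54c (ENSMUSG00000079108, 55230168 to 55263836) lie on chromosome 12, plus strand, with gaps of 39.7 and 40.6 kb. Entpd4 (ENSMUSG00000095463, 69337174 to 69367270) and Entpd4b (ENSMUSG00000022066, 69555424 to 69585520) lie on chromosome 14, plus strand, 188.2 kb apart. All 8 are annotated as protein coding.

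The coding sequences showed how little there is to tell the copies apart. In the longest coding transcript of each copy in GENCODE M21, the coding part without the stop codon was 369 bases in each Tmem254 copy, 1839 bases in each Entpd4 copy and 1512 bases in each Srp54 copy. The Tmem254 copies were identical over all 369 bases, and Entpd4 and Entpd4b were identical over all 1839 bases and over the whole transcript of 3589 bases. Introns of the copies were not compared. The opening coding bases, with the start codon in capitals, stand for shared sequence. They cannot tell the copies apart for a read that lies wholly within them. They lie at chr14:25927325-25927384, chr14:26206694-26206753 and chr14:26067078-26067137 for Tmem254a, Tmem254b and Tmem254c, and in spliced form at chr14:69347587-69349124 and chr14:69565837-69567374 for Entpd4 and Entpd4b.
Tmem254a, Tmem254b and Tmem254c: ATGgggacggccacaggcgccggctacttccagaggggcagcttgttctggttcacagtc
Entpd4 and Entpd4b: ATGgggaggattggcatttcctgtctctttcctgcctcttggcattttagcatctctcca

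Srp54a and Srp54b were also identical over the coding sequence, and Srp54c differed from each of them at 6 of 1512 bases (99.6% identity). Counted from 1 at the first coding base, with the base of Srp54a and Srp54b first and that of Srp54c last, these are T501C, T945C, G946A, T965G, A1197T and G1249A. The windows that hold 4 of them are shown because only reads over such bases can tell Srp54c from the other copies within the coding sequence, and the differing bases are in capitals. The first window is spliced and lies at chr12:55102516-55105192 in Srp54a, chr12:55177576-55180252 in Srp54b and chr12:55252820-55255540 in Srp54c.
Srp54a: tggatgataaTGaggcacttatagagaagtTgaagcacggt
Srp54b: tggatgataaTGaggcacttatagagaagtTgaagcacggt
Srp54c: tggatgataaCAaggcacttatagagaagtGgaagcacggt
The second window lies at chr12:55108532-55108552 in Srp54a, chr12:55183592-55183612 in Srp54b and chr12:55257455-55257475 in Srp54c.
Srp54a: tcagtaagcaAccagggagaa
Srp54b: tcagtaagcaAccagggagaa
Srp54c: tcagtaagcaTccagggagaa

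Over all annotated transcripts, the copies differed in how much private sequence they have, which is sequence found in no other copy of the family. Of the 50-base stretches of Tmem254a, 700 of 2606 were private, and these lay at the 3' end of its longest transcript. None of the 1906 stretches of Tmem254b and none of the 1530 stretches of Tmem254c were private, so the annotated Tmem254c transcripts are contained in those of the other copies. Srp54a had 1583 private stretches of 5366, Srp54b 481 of 4506 and Srp54c 220 of 3593. Entpd4 and Entpd4b shared all 8206. Stretches of 300 bases gave the same for Tmem254b, Tmem254c and the Entpd4 copies, with no private stretch in any of them. Outside the families, 5 genes held any of these 50-base stretches, at most 14 in a gene. RefSeq promoter windows (GRCm38.p6, 300 bases each) were found for 7 of the 8 copies. A window of Tmem254a and a window of Tmem254c were identical over all 300 bases. The best local alignment of Srp54a and Srp54c covered 266 bases with 7 mismatches. It covered 59 bases with 1 mismatch for Srp54a and Srp54b, and 91 bases with 0 for Srp54b and Srp54c. Each window is placed by the annotated start of its copy. The length of an alignment therefore also depends on those starts and does not measure how alike the promoters are. The Entpd4 copies could not be compared in this way.

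The libraries held 14557844 to 16009248 gene counts each. All 10 astrocyte markers tried were present at 1 CPM (counts scaled to 1000000 per library) or more. Ptbp1 itself fell by 33.1% in mean CPM, from 298 ± 3.61 to 199 ± 5.13 CPM (SD, n = 2, edgeR adjusted p = 0.00125), and was not called by limma on log2(FPKM + 1) (adjusted p = 0.734). Markers of other cell types were present too, with summed levels of 862 to 912 CPM for microglia and macrophages and 2056 to 2762 CPM for fibroblasts and pericytes. Of the neuronal list, 4 of 7 markers were at 1 CPM or more on average (Map2 at 154 and Stmn2 at 83.6 CPM in the controls), the list summed to 244 to 260 CPM, and Rbfox3, Dcx and Snap25 were under 1 CPM. Of the oligodendrocyte lineage list, 6 of 7 were at 1 CPM or more (Olig1 at 175 CPM in the controls), with a sum of 319 to 353 CPM, and Mog was under 1 CPM on average. Of the 3 endothelial markers, Cdh5 was at 35.6 CPM in the controls, Pecam1 was under 1 CPM on average and Cldn5 was at 0 counts in every library.

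Nearly all counts of the Tmem254 family stood on Tmem254c, and few on Tmem254b, although neither has a private 50-base stretch. Tmem254c had 223 and 223 counts in the controls and 100 and 32 in the knockdown. Tmem254a, the copy with the most private sequence of the family, had 0 and 0 counts in the controls and 0 and 5 in the knockdown. Tmem254b had 1 count, in NC siRNA 2. A count of 0 allows up to 3 counts, or 0.187 to 0.206 CPM in these libraries. Tmem254c therefore took 100% of the family count in NC siRNA 1 (exact Clopper-Pearson 95% interval 98.4% to 100%), 99.6% in NC siRNA 2 (97.5% to 99.99%), 100% in Ptbp1 siRNA 1 (96.4% to 100%) and 86.5% in Ptbp1 siRNA 2 (71.2% to 95.5%). Such intervals cover counting error only, since the labels mention no molecular identifiers and reads can be PCR copies.

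**Figure D1:**
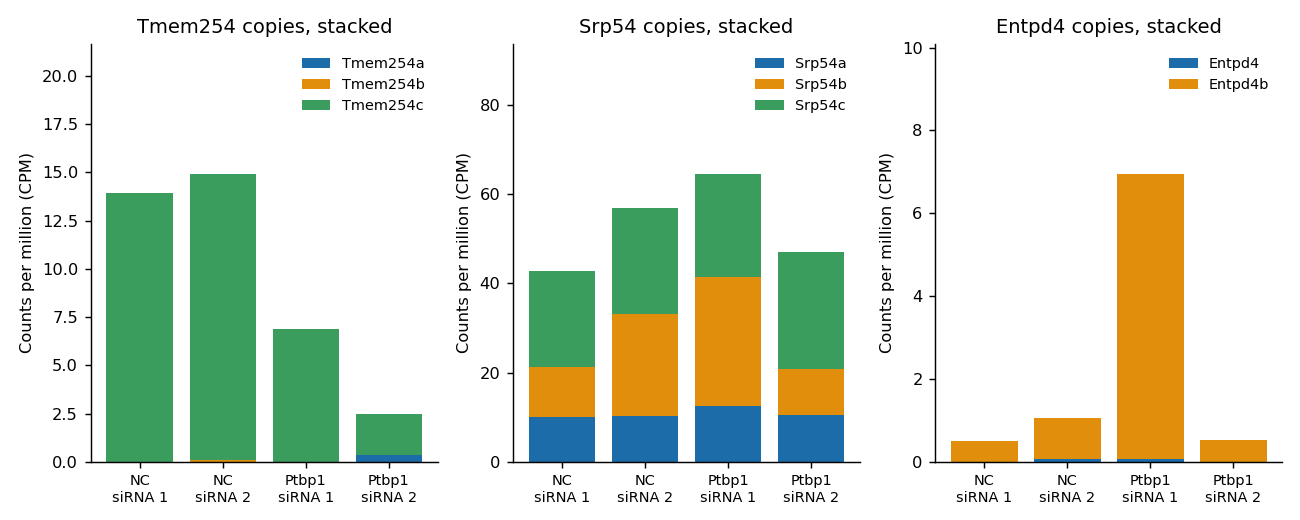
Level of each copy in CPM (vertical axis, stacked within a bar) in each of the 4 libraries (horizontal axis), with a panel per family. Tmem254c makes up almost the whole Tmem254 bar, Srp54b changes most between libraries within the Srp54 bar, and the Entpd4 bar reaches 6.96 CPM in Ptbp1 siRNA 1 and at most 1.07 CPM elsewhere.

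Adding the copies did not remove the difference between the libraries in the Tmem254 family. The family sum was 13.9 and 14.9 CPM in the controls and 6.89 and 2.48 CPM in the knockdown. Both Ptbp1 siRNA libraries lay below both NC siRNA libraries, and the Ptbp1 siRNA libraries differed from each other 2.77-fold while the NC siRNA libraries differed 1.07-fold. Of all 16366 rows tested, 31.5% had groups that do not overlap. Mean levels were 14.4 ± 0.727 CPM in the controls and 4.69 ± 3.12 CPM in the knockdown (SD, n = 2), a change of -67.5%. The log2 fold change of knockdown over control was -1.63 (SE 0.28, 95% interval -2.22 to -1.03), and the sum did not pass the edgeR quasi-likelihood test over all rows (adjusted p = 0.0919), which 0.0244% of rows passed. Since Tmem254c makes up 578 of the 584 counts of the family, this value is close to that of the copy that led to the choice of the family (log2 fold change -1.68, SE 0.303 for Tmem254c alone) and is not independent of it.

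The call of the Tmem254 sum depended on the fit. The adjusted p was 2.5e-07 with the replicate number as a block and 6.0e-14 with no filter on low counts, and between 3.6e-18 and 5.1e-04 when a library was left out, with log2 fold changes of -2.53 without Ptbp1 siRNA 1 and -1.06 without Ptbp1 siRNA 2. It was 1.00 with DESeq2 and 0.854 with limma on log2(FPKM + 1). In the edgeR fits with no filter or with a library left out, each row's spread came wholly from the trend over all rows, and in the fit with the block the trend weighed as 59.2 degrees of freedom, against 14.0 in the reported fit. Summed levels of 2 marker lists stood in the same order between the groups as the Tmem254 sum. Those of the astrocyte, microglia and macrophage, neuron, oligodendrocyte lineage and endothelial lists overlapped between the groups. Fibroblast and pericyte markers summed to 2762 and 2488 CPM in the controls and 2461 and 2056 CPM in the knockdown. All 6 of 6 markers were at 1 CPM or more and none at 0. For Col1a1, Col1a2 and Dcn the groups did not overlap, and Col3a1, Lum and Pdgfrb overlapped. Ependymal and choroid plexus markers summed to 405 and 762 CPM in the controls and 370 and 401 CPM in the knockdown, with 4 of 4 at 1 CPM or more and none at 0. Of these, Ttr was at 348 CPM in NC siRNA 2, against 52.3 CPM in NC siRNA 1 and 38.8 and 52.3 CPM in the knockdown. Of the ependymal and choroid plexus markers, only Foxj1 had groups that did not overlap, and Ttr, Enpp2 and Cfap126 overlapped. Of all tested rows, 31.5% had groups that do not overlap. The part of both marker lists in the result was not tested, and in bulk RNA fewer cells of a type and less RNA per cell cannot be told apart.

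In the Srp54 family the copy that differed most between libraries was Srp54b. Srp54b had 180 and 342 counts in the controls and 421 and 153 counts in the knockdown, so that 1 library of each group was high and the other low and the groups overlapped. Srp54a had 160 and 155 counts in the controls and 180 and 156 in the knockdown. Srp54c had 345 and 357 counts in the controls and 337 and 391 in the knockdown. The highest library was 2.82-fold above the lowest in CPM for Srp54b, against 1.24-fold for Srp54a and 1.22-fold for Srp54c. Srp54a and Srp54c added together were at 31.5 and 34.1 CPM in the controls and at 35.6 and 36.7 CPM in the knockdown, a span of 5.20 CPM, while Srp54b spanned 18.7 CPM.

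The make-up of the Srp54 family count moved with Srp54b. Srp54b took 26.3% of it in NC siRNA 1 (exact interval 23.0% to 29.7%), 40.0% in NC siRNA 2 (36.7% to 43.4%), 44.9% in Ptbp1 siRNA 1 (41.7% to 48.1%) and 21.9% in Ptbp1 siRNA 2 (18.8% to 25.1%). The interval of each high library lay apart from those of both low libraries. These intervals cover counting error only and come from the counts that led to the choice of the copy, so their separation tests nothing. Averaged over a group, the share of Srp54b was 33.2 ± 9.74% in the controls and 33.4 ± 16.3% in the knockdown (SD, n = 2), a difference far inside the spread within a group. The group shares were 20.8 ± 3.68% and 20.7 ± 2.19% for Srp54a and 46.1 ± 6.05% and 45.9 ± 14.1% for Srp54c. Per length, in deposited FPKM (scaled to the length of the gene and the size of the library), Srp54c stood highest in 3 of 4 libraries, at 5.88, 6.51 and 7.17 FPKM in NC siRNA 1, NC siRNA 2 and Ptbp1 siRNA 2. In Ptbp1 siRNA 1, Srp54b was at 6.39 FPKM and Srp54c at 6.34 FPKM. Srp54a was lowest in every library, at 1.87, 1.93, 2.32 and 1.96 FPKM in the order of the groups. In NC siRNA 1 and Ptbp1 siRNA 2, Srp54b was near it, at 2.48 and 2.26 FPKM. The copies differ in how much private sequence they have, and the treatment of reads with several matches is not known. This order of deposited values therefore does not rank the copies by their RNA.

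The highest library was 1.51-fold above the lowest for the Srp54 family sum, against 2.82-fold for Srp54b alone. In CPM the sum was not steadier, with a span of 21.9 CPM against 18.7 CPM for Srp54b. Adding steadier copies to a varying copy lowers the ratio without offsetting that copy. The values of the sum are given next. The Srp54 family sum was 42.7 and 56.96 CPM in the controls and 64.6 and 46.97 CPM in the knockdown, so the groups overlapped. Mean levels were 49.8 ± 10.1 and 55.8 ± 12.5 CPM (SD, n = 2). The log2 fold change was 0.16 (SE 0.13, 95% interval -0.12 to 0.45, edgeR adjusted p = 1.00), and the interval holds 0. Its sign turned to -0.033 without NC siRNA 1 and -0.084 without Ptbp1 siRNA 1, and it was 0.38 without NC siRNA 2 and 0.38 without Ptbp1 siRNA 2. For the copies, as a description, the log2 fold changes were 0.17 (SE 0.165) for Srp54a, 0.21 (SE 0.33) for Srp54b and 0.13 (SE 0.12) for Srp54c, and that of Srp54b ran from -0.72 to 0.80 when a library was left out.

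Counts of the Entpd4 family were few and stood almost wholly on Entpd4b, although both copies have the same annotated transcript sequence. Entpd4b had 8 and 15 counts in the controls and 100 and 8 in the knockdown. Entpd4 had 0 and 1 counts in the controls and 1 and 0 in the knockdown. Entpd4b thus took 131 of 133 counts (98.5%), and in Ptbp1 siRNA 1 it took 100 of 101 (exact interval of the share 94.6% to 99.97%). Only Ptbp1 siRNA 1 stood apart, and the other Ptbp1 siRNA library lay between the NC siRNA libraries in CPM. The genes Gm16867 and Gm27177 overlap Entpd4 and Entpd4b on the opposite strand, and no label says if strand was used in counting. Gm16867 had 32, 12, 18 and 21 counts in the order NC siRNA 1 and 2, Ptbp1 siRNA 1 and 2, and Gm27177 had 12, 4, 5 and 4, so neither was high in Ptbp1 siRNA 1. Both genes were picked with their values in view.

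The Entpd4 family sum kept the pattern of Entpd4b. It was 0.499 and 1.07 CPM in the controls and 6.96 and 0.537 CPM in the knockdown, with means of 0.783 ± 0.402 and 3.75 ± 4.54 CPM (SD, n = 2). The Ptbp1 siRNA libraries differed from each other 12.96-fold, more than the means of the groups. The log2 fold change of 2.25 (SE 0.75, 95% interval 0.66 to 3.84) did not pass the test (edgeR adjusted p = 1.00), was 0.36 with limma on log2(FPKM + 1), and without Ptbp1 siRNA 1 was -0.53 (SE 0.91). It was called with no filter on low counts (adjusted p = 2.0e-06), without NC siRNA 1 (0.043), without NC siRNA 2 (1.4e-04) and without Ptbp1 siRNA 2 (2.1e-10), when Ptbp1 siRNA 1 is the sole library of its group. In deposited FPKM the family stood at 0.0615 and 0.132 in the controls and 0.857 and 0.0662 in the knockdown. The 1 added before the log in the limma fit is larger than each of these values and draws a fold change towards 0. The 0.36 is therefore not on the same scale as the 2.25.

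Over the 3 families, no sum passed an edgeR adjusted p of 0.05, where 0.0244% of the 16366 rows tested did. At an unadjusted p under 0.05 there were 2, the Tmem254 and Entpd4 sums, where 650 of the 16366 rows were. As these sums consist almost wholly of copies chosen by their counts, their p-values are not independent of that choice. DESeq2 and limma on log2(FPKM + 1) called none at an adjusted p of 0.05. The groups did not overlap for 1 of the 3 sums, that of Tmem254, where 31.5% of all tested rows had groups that do not overlap. Of the 8 copies, 5 passed the filter on low counts, and Tmem254a, Tmem254b and Entpd4 did not.

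**Figure D2:**
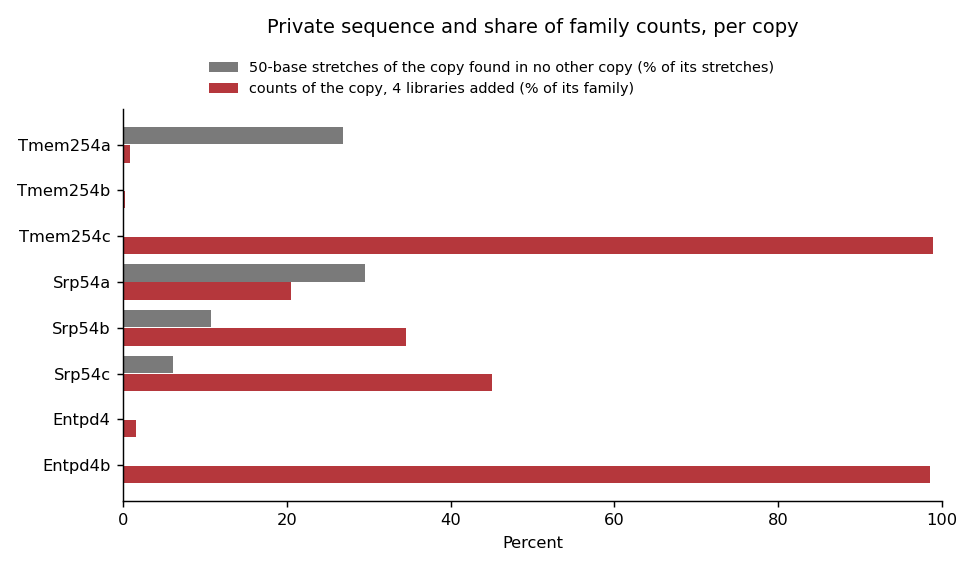
For each of the 8 copies (vertical axis), the percent of its 50-base stretches found in no other copy of the family (grey) and its percent of the family count with the 4 libraries added (red). Tmem254c and Entpd4b hold 98.97% and 98.5% of their family's counts and Tmem254b and Entpd4 hold 1 of 584 and 2 of 133 counts, all with no private stretch, while Tmem254a has the largest private share of its family and 0.856% of its counts.

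Srp54b and Entpd4b differed between the libraries of both groups by more than most genes did, and Tmem254c between the knockdown libraries but not between the controls. The median absolute log2 ratio between the replicates of a group over all tested rows was 0.13 for NC siRNA and 0.12 for Ptbp1 siRNA, and 95% of rows lay below 0.87 and 0.86. For Srp54b the values were 1.02 and 1.498 in control and knockdown, above those of 96.4% and 98.8% of rows. For Entpd4b they were 1.00 and 3.68, above 96.3% and 99.98% of rows, on counts as low as 8. For Tmem254c they were 0.10 and 1.68, above 39.2% and 99.1% of rows. Srp54a and Srp54c lay between 0.05 and 0.24, and the Srp54 family sum lay at 0.41 and 0.46, above 84.2% and 85.9% of rows. These copies were chosen for such differences, so the places among all rows describe them and test nothing.

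**Figure D3:**
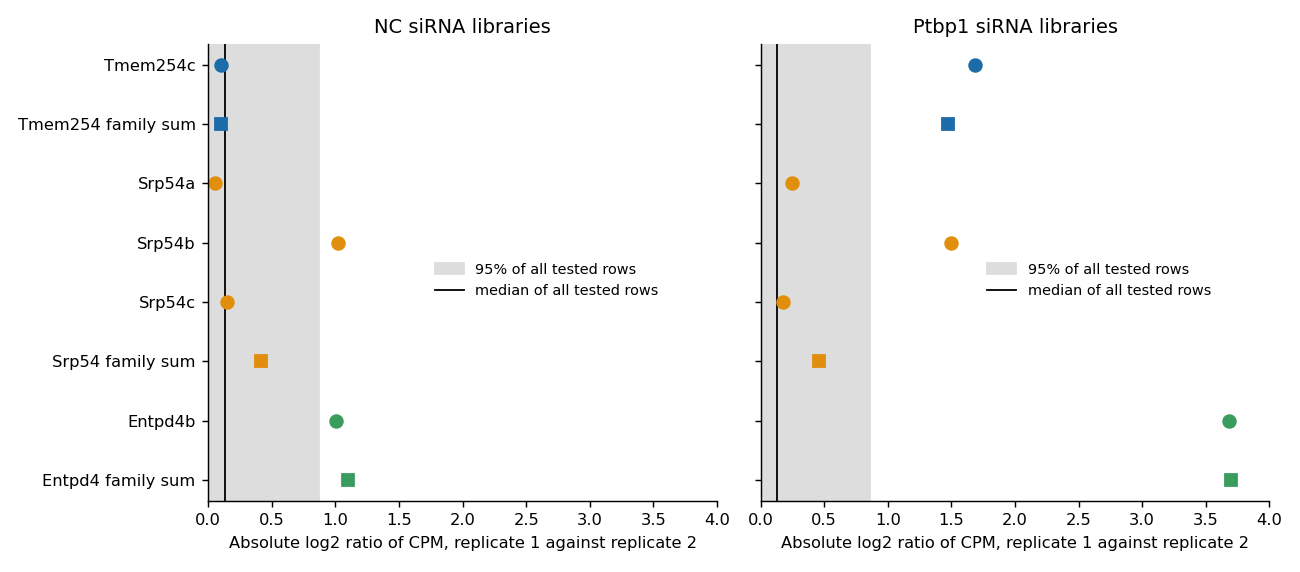
Absolute log2 ratio of CPM between the replicates of a group (horizontal axis) for the 5 tested copies (circles) and the 3 family sums (squares), coloured by family, with a panel per group. Srp54b lies outside the grey span that holds 95% of all tested rows in both panels while the Srp54 sum lies inside it, and the Tmem254 and Entpd4 sums lie beside their main copies.

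Of the protein-coding genes within 500 kb of a copy, 10 were tested near Tmem254, 12 near Srp54 and 9 near Entpd4. Of these edgeR called none, where 0.0244% of all 16366 rows tested were called. At an unadjusted p under 0.05 there were 0, 0 and 1, which is Loxl2, where 650 of all rows were. DESeq2 and limma on log2(FPKM + 1) called none either. The nearest tested genes on each side of the families had log2 fold changes of -0.23 (SE 0.15) for Anxa11, a phospholipid-binding annexin, and 0.0094 (SE 0.072) for Slmap, a membrane-anchored protein, around Tmem254. They were -0.17 (SE 0.16) for 2700097O09Rik and -0.044 (SE 0.10) for Ppp2r3c, a regulatory subunit of a protein phosphatase, around Srp54. They were 0.039 (SE 0.077) for the mitochondrial iron importer Slc25a37 and -0.17 (SE 0.074) for the matrix-crosslinking enzyme Loxl2 around Entpd4. Leaving out a library moved Anxa11 from -0.41 to -0.068, 2700097O09Rik from -0.30 to -0.040 and Loxl2 from -0.27 to -0.079.

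Between the copies of each family lies a tested gene that is itself nearly all shared sequence, and these were picked with their values in view. Gm9780, between the Tmem254 copies, has 99.4% of its 50-base stretches in other genes and had 1 and 40 counts in the controls and 11 and 38 in the knockdown. Its low and high control libraries had the same 223 counts of Tmem254c. The gene 1700047I17Rik2, between the Srp54 copies, is 100% shared and had 199 and 130 counts in the controls and 136 and 235 in the knockdown. Its high libraries were those where Srp54b was low. Gm16867, which reaches from Entpd4 into the interval towards Entpd4b, is 93.0% shared. The larger of the replicate differences in the 2 groups reached 5.42, 0.75 and 1.32 on the log2 scale for these genes. Over the neighbours with under 50% shared sequence its median was 0.22 near Tmem254 (9 genes), 0.12 near Srp54 (11 genes) and 0.14 near Entpd4 (8 genes). The largest values there were 0.69, 0.34 and 1.02 in turn, the last for Stc1. Gm9780, Gm16867 and Stc1 were at 1.37, 1.40 and 1.03 CPM in the controls. The median level of all tested neighbours was 61.0 CPM near Tmem254 and 28.1 CPM near Entpd4. The part of level in these differences was not tested.

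Replicates also differed at least 2-fold in a larger share of the genes rich in shared sequence across the whole table. Of the tested genes outside the families, 753 had at least 50% of their 50-base stretches in other genes, and 10.8% of them differed at least 2-fold between the NC siRNA replicates and 9.69% between the Ptbp1 siRNA replicates. Of the 15598 genes with under 50%, 3.42% and 3.08% did. The former also had lower levels, with a median of 3.65 CPM against 24.4 CPM, and the part of level in this difference was not tested. The genes whose level over the 4 libraries lay nearest to that of a copy were sought among 13402 protein-coding genes by the Euclidean distance of centred log2 CPM, and their counts are given for NC siRNA 1 and 2 and Ptbp1 siRNA 1 and 2 in turn. For Entpd4b they were Hist1h2bq, a histone gene with 97.3% shared stretches (distance 1.11; 12, 12, 67 and 13 counts), and Gm21887 with 59.7% (distance 1.77; 93, 84, 268 and 95 counts), both high in Ptbp1 siRNA 1. For Srp54b they were the glycosyltransferase gene B3gnt7 (distance 0.299; 16, 25, 31 and 14 counts) and Lgi4 (distance 0.334; 16, 29, 30 and 15 counts), and for Tmem254c the transporter gene Slc13a4 was the second nearest (distance 0.867; 57, 94, 42 and 19 counts), none with shared stretches. With so many genes and 4 libraries, a near pattern is a description only.

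No partner gene of SRP54 passed the test, which only 0.0244% of all tested rows passed. Of 24 tested genes of the signal recognition particle, its receptor, the translocon and the signal peptidase, edgeR called none higher and none lower, and at an unadjusted p under 0.05 there were 2, the translocation genes Tram2 (log2 fold change -0.29, SE 0.10) and Sec63 (-0.17, SE 0.071), where 650 of all 16366 rows were. DESeq2 and limma on log2(FPKM + 1) called none. The median log2 fold change was -0.0015, beside 0.00033 over all tested rows, and 12 of the 24 were positive. Srp68 and Srp72, which form a pair of proteins on the particle's RNA, stood at 215 and 212 CPM and at 220.1 and 214 CPM for Srp68, and at 219.7 and 223 CPM and at 232 and 221 CPM for Srp72, in control and knockdown in turn. Their log2 fold changes were 0.024 (SE 0.063, 95% interval -0.11 to 0.16) and 0.035 (SE 0.063). Ssr3, a subunit of the translocon-associated complex and the gene with the highest level of the list, was at 520.5 and 541 CPM in the controls and 513 and 522 CPM in the knockdown. Per length, Srp68 and Srp72 stood at 77.7 ± 0.534 and 38.5 ± 0.403 FPKM in the controls (SD, n = 2), and the 3 Srp54 copies added together at 11.8 ± 2.30 FPKM. It is not known if reads that match several copies were dropped, so the Srp54 sum may miss reads and cannot be ranked against these genes.

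The other genes of the nucleoside diphosphatase list gave no call either. Of the 8 genes listed, 6 were tested and edgeR called 0, where 0.0244% of all 16366 rows were called. At an unadjusted p under 0.05 there was 1, where 650 of all rows were, and DESeq2 and limma on log2(FPKM + 1) called 0. The gene at an unadjusted p under 0.05, Entpd7, had a log2 fold change of 0.44 (SE 0.194). Cant1, a calcium-dependent nucleotidase of the Golgi and endoplasmic reticulum, stood at 84.4 and 80.97 CPM in the controls and 84.3 and 81.5 CPM in the knockdown. Entpd5, a diphosphatase of the endoplasmic reticulum, was at 26.0 and 23.3 CPM in the controls and 20.4 and 23.3 CPM in the knockdown, and Entpd6 at 22.2 and 24.9 CPM and at 21.8 and 18.1 CPM. Their log2 fold changes were 0.0038 (SE 0.071) for Cant1, whose sign turned with no scaling factor, -0.18 (SE 0.12) for Entpd5 and -0.24 (SE 0.13) for Entpd6. Without a library Entpd5 ran from -0.28 to -0.085 and Entpd6 from -0.38 to -0.11. Entpd3 and Entpd8 lay below the filter, with at most 11 counts in a library. Per length, the Entpd4 family sum was at 0.0965 ± 0.0495 FPKM in the controls (SD, n = 2). The lowest tested gene of the list was Entpd7 at 0.673 ± 0.0118 FPKM. Entpd4 and Entpd4b share all their 50-base stretches, and it is not known if reads that match both copies were dropped. Their sum may therefore miss reads, and its level cannot be ranked against these genes.

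**Figure D4:**
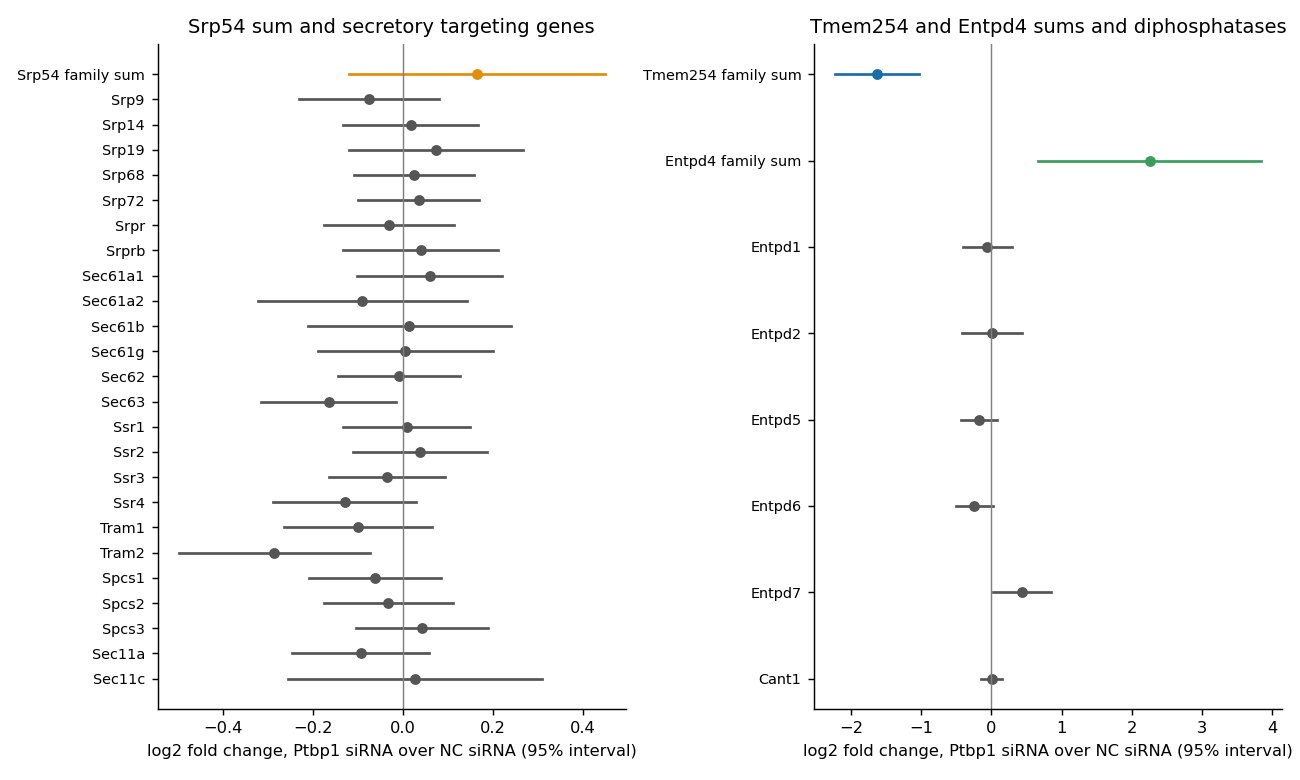
Log2 fold change of Ptbp1 siRNA over NC siRNA (horizontal axis, point) with its 95% interval (line) for the family sums (coloured) and for the tested genes of the secretory targeting and diphosphatase lists (grey), on different horizontal scales. The Srp54 sum has a wider interval than most of its partner genes, and the Tmem254 and Entpd4 sums lie at -1.63 and 2.25, outside the span of the points of the diphosphatase list.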

How the data were processed

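Whole-number counts per gene and FPKM values (divided by gene length and a scaled library size) were deposited for each library, with the units read from the file headers and values. The authors' table also gives group means, which are a signal of counts divided by size factors, per the values. It gives the authors' log2 fold change between the groups, per the file headers. It gives the authors' p-value, plain and adjusted, from a test the file headers do not name. Only the counts and FPKM were analysed. The builds GRCm38 and mm10 come from the submitters' processing notes, and the aligner, the counter, its strand setting and its treatment of reads with several matches are not known here. Libraries were made with a SMARTER mRNA kit, per the labels' protocols.

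For the family comparison, the counts of a family's copies were added and replaced its copies. A quasi-likelihood fit in edgeR 4.0.16 (R 4.3.3; TMM, filterByExpr, group only, 2 residual degrees of freedom) followed, and an adjusted p (Benjamini-Hochberg, two-sided) under 0.05 is a call. Single copies come from the same fit to the table as deposited (16368 rows) and have no test. TMM factors were 0.997 to 1.003. The steps were tested on simulated data. The 50-base stretches were read on the forward strand of GENCODE M21, which holds 54336 of the table's identifiers. Alternatives used limma 3.58.1 and DESeq2 1.42.0. By rule the text names the 3 list genes with the highest levels (none was called), the nearest tested neighbours and the nearest patterns. A gene this rule takes is not reported here, and Tram2, Sec63, Entpd7 and genes overlapping or between copies were named after their values were seen. Members and lists were chosen with earlier results of these data known.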

Additional observations from a re-analysis of the deposited data

How the results depend on the processing

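Of 33 fold changes of a family sum under 11 alternatives, 20 kept their direction and their side of the threshold, 10 became calls and 3 turned in sign. Of 66 counts of called rows or genes, 58 stayed within 1.5 times, most of them at 0, and 8 moved. The Tmem254 sum was called with no filter on low counts (log2 fold change -1.63), with the replicate block (-1.67) and without a library (-2.53 to -1.06). The Srp54 sum ran from -0.084 to 0.38 without a library, with a turned sign without NC siRNA 1 (-0.033) and without Ptbp1 siRNA 1 (-0.084). The Entpd4 sum was called with no filter (2.25) and ran from -0.53 to 3.15 without a library, with the turned sign without Ptbp1 siRNA 1. With limma on log2(FPKM + 1) it was 0.36, on another scale, since the added 1 is larger than each FPKM value of this family. The number of rows called was 4, and 0 with limma on log2(FPKM + 1) (835 at an unadjusted p under 0.05), 50 with no filter, 36 with the replicate block and 33 to 74 without a library. Near Tmem254, 0 to 1 genes were called without a library, Gm9780 without NC siRNA 2. Signs also turned for Cant1 with no scaling factor (-0.0024) and with no filter (-0.0017), and without a library for Cant1 (-0.026 to 0.032), Srp72 (-0.00069 to 0.070), Slmap (-0.043 to 0.062), Ppp2r3c (-0.15 to 0.055) and Slc25a37 (-0.019 to 0.10). The cause of these changes was not tested. In terms of pairing, replicate numbers share only a number here (correlation of deviations 0.0914), and the block changed no other call of a sum or list. Ptbp1 was not called with limma (-0.57). Entpd4, Tmem254a and Tmem254b had at most 5 counts in a library, which limits the precision of their shares.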
